A study of Drosophila melanogaster with 14 samples.

Results

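The genes described are 9 genes of Drosophila melanogaster that make, deposit and modify chitin or bind it in the extracellular matrix: mmy, kkv, knk, rtv, serp, verm, obst-A, obst-B and Gasp. They were chosen by name, with earlier results of these data known, so their counts beside shares over all genes are descriptions and not tests. They were found by their FlyBase identifiers among 14156 genes in the wild-type count tables and 15682 genes in the tables of a protein degradation experiment. All 9 were present in both sets, and all 9 passed the filter on low counts in both.

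Chitin is a polymer of N-acetylglucosamine that is laid down outside the apical surface of epithelial cells. In the fly embryo it is best known from the epidermal cuticle and from the lumen of the trachea, where a chitin cable forms and is later remodelled while the tubes take their final shape. Sugar precursors are made in the cytoplasm, a membrane synthase polymerises and extrudes the chain, and secreted deacetylases and chitin-binding proteins then organise the fibres.

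RNA was sequenced from embryonic nuclei isolated by INTACT, a method that tags the nuclei of a chosen cell type and captures them by that tag. Embryos labelled twi-INTACT, with the tag under a mesodermal promoter, gave mesodermal nuclei, and embryos labelled elav>INTACT, with the tag under a neuronal driver, gave neuronal nuclei. Each tissue was taken at stages 10-13 (early below) and 14-17 (late), and each of these 4 groups has 2 libraries. Another 6 libraries came from mesodermal nuclei of stages 14-17 and carried the tag under twi, a transgene for Nslmb (a fusion that directs GFP-tagged protein to degradation) and Ubx tagged with GFP. In the 3 libraries called degraded the label is twi-INTACT, Mef2>Nslmb,GFP-Ubx, and in the 3 called control it is twi-INTACT; UAS-Nslmb,GFP-Ubx. The controls therefore share the tagged Ubx and the Nslmb transgene and lack the Mef2 driver, so that an effect of the driver and an effect of degraded Ubx cannot be told apart. Nothing in the labels ties a replicate to an embryo collection of its own, so the p-values reflect the spread among these libraries, which may be technical.

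Counts assigned to genes ran from 12970816 to 17905141 in the wild-type mesoderm libraries, from 27924215 to 36150646 in the neuronal libraries and from 24314883 to 31033963 in the degradation set. The smallest count of any member in any library was 90, for rtv. Ubx RNA, which does not report on the protein, in CPM (counts scaled to a common library size) stood at 68.9, 60.3 and 71.0 in the controls and at 62.7, 79.1 and 89.8 CPM in the degraded libraries, a log2 difference of 0.21 ± 0.15 (SE) with an adjusted p of 0.448 by the quasi-likelihood test of edgeR, adjusted after Benjamini and Hochberg over all genes. All adjusted p-values below come from that test unless another is named, a gene is called at an adjusted p under 0.05, and values after ± are standard errors for log2 differences and SDs for levels. twi RNA was higher in mesoderm than in neuronal nuclei by 6.11 ± 0.34 (SE) on the log2 scale at stages 10-13 and by 6.54 ± 0.35 at stages 14-17. Of 11 neuronal markers tested, 7 were higher in neuronal nuclei at stages 10-13 and 0 at stages 14-17, when 2 (Rbp9 and CadN) were higher in mesoderm. Of 12 mesoderm and muscle markers 5 were higher and 5 lower in mesoderm at stages 10-13, and 10 were higher and 0 lower at stages 14-17. These neuronal markers thus did not set the late neuronal libraries apart from mesoderm, and the name neuronal follows the labels. elav itself was below the filter in the wild-type tables.

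In nuclei of stages 10-13, 8 of the 9 chitin genes were lower in mesoderm than in neuronal nuclei, by 4.49-fold (knk) to 30.4-fold (obst-A), and rtv did not pass the test. Across all 10549 genes tested, 29.5% were called lower in mesoderm and 23.2% higher. The median log2 difference was -3.05 over the members and -0.08 over all genes tested. Marker lists were mixed at this stage. Of 11 neuronal markers 7 were lower in early mesoderm, in the direction of the members, and 2 (CadN at 1.46 and scrt at 1.42) were higher, while the summed level of the list was 1796 to 1907 CPM in mesoderm and 1309 to 1650 CPM in neuronal nuclei. Of the muscle list, the 5 markers of contractile muscle Mlc2 (-2.97), Tm2 (-2.11), Act57B (-2.08), Mhc (-1.70) and up (-1.33) were also lower in early mesoderm, and twi, Mef2, lmd, sns and kirre were higher. Of 6 glial markers 4 were lower in early mesoderm (Eaat1 at -3.58, repo at -1.48, wrapper at -0.97 and nrv2 at -0.66) and 2 higher (gcm and Gli), with summed levels of 412 to 425 CPM in mesoderm and 496 to 558 CPM in neuronal nuclei. Of 7 hemocyte markers 4 were higher in early mesoderm and 3 lower, with summed levels of 2737 to 2739 CPM and 1685 to 1853 CPM in neuronal nuclei. The part of these markers in the result was not tested. At stages 14-17 the tissues lay close together: kkv was higher in mesoderm, rtv was lower, and the other 7 did not pass the test. Background shares at that stage were 19.0% called higher and 22.1% called lower, so a single call in each direction is near the background. The medians were -0.09 over the members and -0.12 over all genes. With library totals in place of TMM scaling, the split of all called genes moved from 44.0% to 31.0% higher in mesoderm at stages 10-13 and from 46.2% to 27.9% at stages 14-17. The median of all genes moved to -0.33 and -0.42, and all 9 members were called lower at stages 10-13.

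Between stages 10-13 and 14-17 most members rose in mesoderm and some fell in neuronal nuclei. In mesoderm 8 of 9 members rose, by 2.27-fold (mmy) to 10.8-fold (Gasp), against a background of 24.9% called higher and 22.7% called lower. The median was 2.17 over the members and 0.00 over all genes. Of 11 neuronal markers 9 also rose in mesoderm, where the summed level of the list was 1796 to 1907 CPM early and 2447 to 2748 CPM late. Of 12 mesoderm and muscle markers 8 rose and 3 fell, with a summed level of 10585 to 11822 CPM early and 54854 to 61107 CPM late. Of 7 hemocyte markers 4 rose and 2 fell, with a summed level of 2737 to 2739 CPM early and 7779 to 7869 CPM late. Epidermal and tracheal markers did not rise as a list: of 16, 3 rose and 3 fell (median -0.14). Their summed level was 6205 to 6723 CPM early and 4362 to 4843 CPM late. Of 6 glial markers 1 rose and 1 fell. The part of these lists in the result was not tested. In neuronal nuclei kkv, mmy, serp and verm fell and 0 members rose, against a background of 12.0% called lower and 8.47% called higher, with medians of -0.80 and -0.03. Of 16 epidermal and tracheal markers 5 also fell in neuronal nuclei, namely Ddc (-4.38), ple (-1.96), ovo (-0.97), bnl (-0.87) and grh (-0.87), and 1, sinu, rose (1.24), with summed levels of 2381 to 2925 CPM early and 2059 to 3177 CPM late. Of 7 hemocyte markers 3 rose and 0 fell in neuronal nuclei. Of 12 mesoderm and muscle markers 0 rose and 2 fell, and of 6 glial markers 0 rose and 1 fell. Of 11 neuronal markers 0 rose and 0 fell. The part of all these markers in the neuronal result was not tested. The difference between these changes, mesoderm minus neuronal, was called higher for 8 of 9 members, all but rtv, where 20.6% of all genes were called higher and 14.7% lower. Its median was 2.97 over the members and -0.11 over all genes. The neuronal and muscle lists moved with the members in this difference, and the other 3 lists were mixed. Of 11 neuronal markers 8 were called higher and 1 lower (median 3.10), and of 12 mesoderm and muscle markers 7 higher and 2 lower (median 2.69). Of 16 epidermal and tracheal markers 3 were higher, among them Ddc (5.77) and ple (5.64), and 2 lower (median -0.20). Of 7 hemocyte markers 2 were higher and 2 lower (median -0.05), and of 6 glial markers 1 higher and 1 lower (median 0.21). The part of these lists was not tested. These comparisons share libraries, so their counts are not independent of each other.

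**Figure D1:**
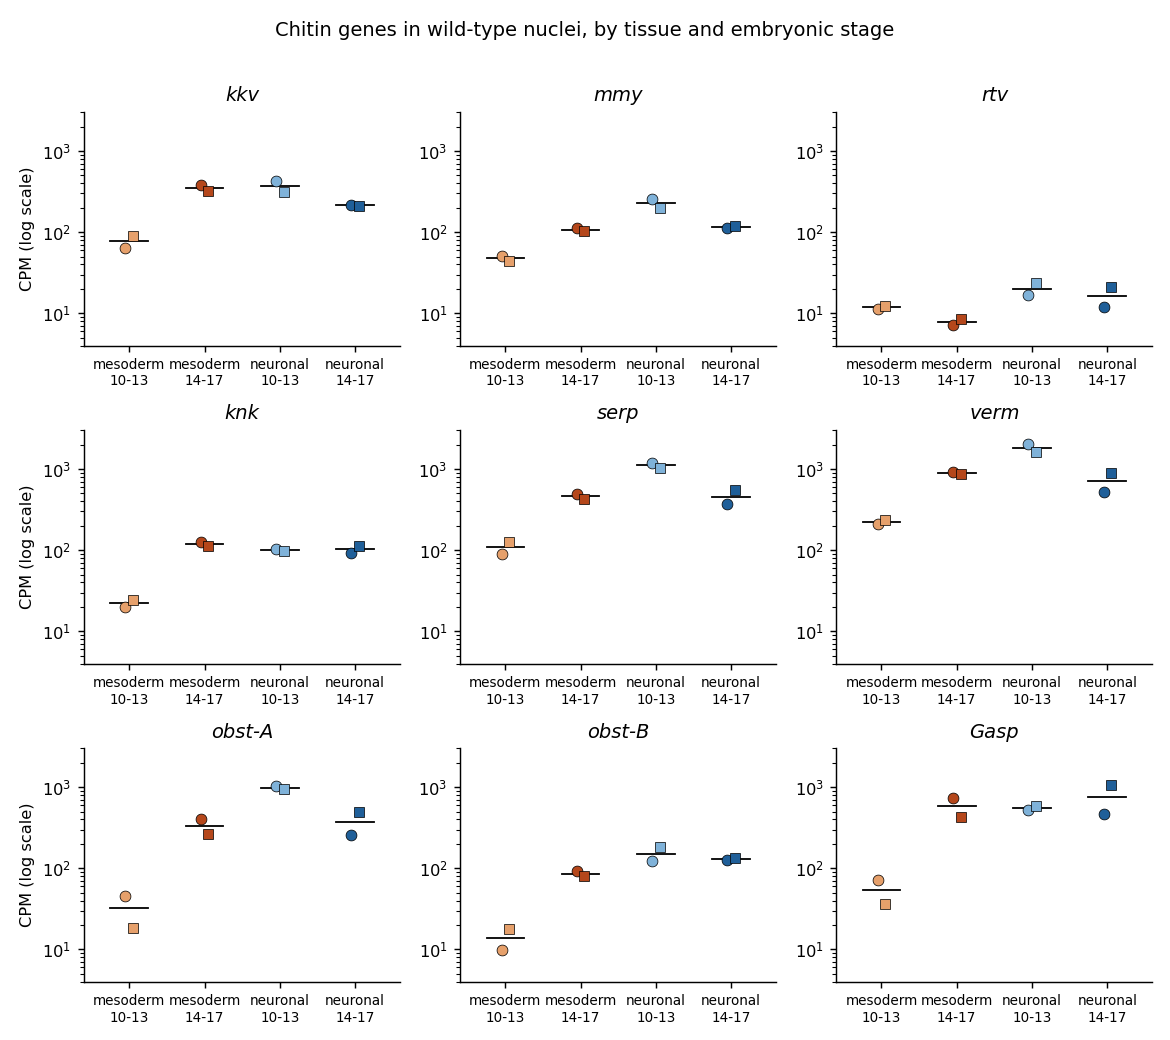
CPM (log scale) of each chitin gene in the 8 wild-type libraries, with circles for replicate 1, squares for replicate 2 and a line at the group mean. Mesoderm at stages 10-13 holds the lowest libraries of every gene shown except rtv, whose lowest libraries, 7.15 and 8.54 CPM, are mesoderm at stages 14-17.

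mmy and kkv act first. mmy encodes the UDP-N-acetylglucosamine pyrophosphorylase, the last enzyme before polymerisation, and kkv encodes the chitin synthase of epidermis and trachea. kkv (FBgn0001311, BDGP6 chromosome 3R, 5378093 to 5392866, minus strand) stood at 64.2 and 89.6 CPM in mesoderm at stages 10-13 and at 377 and 317 CPM at stages 14-17. In neuronal nuclei it stood at 426 and 316 CPM and then at 216 and 212 CPM. Early mesoderm was thus the low group, and its libraries did not overlap with any other. The early tissue difference was -2.27 ± 0.24 (log2, SE) with an adjusted p of 0.000392, and the mesodermal rise was 2.17 ± 0.24 (adjusted p = 0.000591). kkv was higher in late mesoderm than in late neuronal nuclei by 0.70 ± 0.23 (adjusted p = 0.0463) and fell in neuronal nuclei by 0.80 ± 0.23 on the log2 scale (adjusted p = 0.0499). Both of these lay at the edge of the threshold and each was lost in 11 of 15 alternative settings.

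Leaving out single libraries moved both kkv calls past the threshold. The late tissue call had adjusted p-values of 0.0509 and 0.0557 without replicate 1 or 2 of early mesoderm, 0.19 and 0.0856 without replicate 1 or 2 of late mesoderm, and 0.0603 and 0.0758 without replicate 1 or 2 of late neuronal nuclei. The neuronal fall had adjusted p-values of 0.0601 and 0.0668 without replicate 1 or 2 of early mesoderm and of 0.0836 and 0.0841 without those of late mesoderm. It had 0.255 and 0.0583 without replicate 1 or 2 of early neuronal nuclei, and 0.0774 without replicate 2 of late neuronal nuclei. The early tissue difference and the mesodermal rise of kkv kept their calls in all 15 alternatives.

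mmy (FBgn0259749, chromosome 2L, 6468538 to 6473904, minus strand) stood at 51.2 and 43.5 CPM in early mesoderm and at 113 and 102 CPM in late mesoderm. Its neuronal levels were 256 and 196 CPM early and 111 and 118 CPM late. Early neuronal nuclei were the high group and early mesoderm the low one, while the late libraries of both tissues overlapped. Early mesoderm was lower by 4.77-fold (log2 -2.25 ± 0.20 SE, adjusted p = 0.000237). The gene rose in mesoderm by 1.18 ± 0.20 (adjusted p = 0.00263) and fell in neuronal nuclei by 0.98 ± 0.19 on the log2 scale (adjusted p = 0.0157). The neuronal fall of mmy had an adjusted p of 0.0984 without replicate 1 of early neuronal nuclei. The late tissue difference was -0.09 ± 0.19 (adjusted p = 0.724).

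knk and rtv are needed to place chitin after synthesis. Knk is a protein of the cell surface and the extracellular space that organises and protects the fibres, and Rtv is a small membrane-linked protein of the Ly6 kind that, in the beetle Tribolium, is required for Knk to reach the surface. knk (FBgn0001321, chromosome 3R, 10122365 to 10125664, minus strand) stood at 20.1 and 24.4 CPM in early mesoderm and at 125 and 113 CPM in late mesoderm. In neuronal nuclei it stood at 102 and 97.6 CPM and then at 91.6 and 114 CPM. Early mesoderm alone was low, and the other 3 groups lay within 91.6 to 125 CPM. The early tissue difference of knk was -2.17 ± 0.20 (adjusted p = 0.000259), its mesodermal rise was 2.41 ± 0.20 (adjusted p = 0.000293), and its neuronal change was 0.04 ± 0.19 (adjusted p = 0.889). The late tissue difference of knk was 0.20 ± 0.19 (adjusted p = 0.406). An antisense gene, asRNA:CR46038, covers 64.0% of knk's exons and has no row in the tables, so knk's counts are uncertain wherever strand was not read.

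rtv (FBgn0261277, chromosome X, 11152484 to 11153990, minus strand) stood at 11.3 and 12.3 CPM in early mesoderm, 7.15 and 8.54 CPM in late mesoderm, 16.7 and 23.5 CPM in early neuronal nuclei and 12.1 and 20.8 CPM in late neuronal nuclei. Late mesoderm, not early mesoderm, held its lowest libraries, and the late tissue groups did not overlap. Late mesoderm was lower than late neuronal nuclei by 2.09-fold (log2 -1.07 ± 0.32 SE, adjusted p = 0.0331). That call was lost in 6 of 15 alternatives, with adjusted p-values of 0.0523 without replicate 1 of early mesoderm, 0.183 and 0.101 without replicate 1 or 2 of late mesoderm, and 0.119 without replicate 2 of late neuronal nuclei. The early tissue difference of rtv, -0.77 ± 0.32, missed the threshold (adjusted p = 0.0749) and passed it in 6 of 15 alternatives, among them 0.0175 and 0.0351 without replicate 1 or 2 of late neuronal nuclei. Its stage changes were -0.59 ± 0.32 in mesoderm (adjusted p = 0.169) and -0.29 ± 0.31 in neuronal nuclei (adjusted p = 0.531), and the difference between them was -0.30 ± 0.45 (adjusted p = 0.626). The fall of rtv in mesoderm was called in 1 of 15 alternatives, with only the groups compared (adjusted p = 0.0384).

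serp and verm encode secreted chitin deacetylases that carry a chitin-binding domain and act in the tracheal lumen, where they limit tube length. They are neighbours on chromosome 3L, minus strand, with 5716 bp and 0 annotated genes between them: verm (FBgn0261341) spans 19690033 to 19695260 and serp (FBgn0260653) spans 19700977 to 19708015. serp stood at 90.9 and 125 CPM in early mesoderm, 496 and 433 CPM in late mesoderm, 1191 and 1031 CPM in early neuronal nuclei and 367 and 548 CPM in late neuronal nuclei. verm stood at 212 and 233 CPM in early mesoderm, 916 and 869 CPM in late mesoderm, 2062 and 1617 CPM in early neuronal nuclei and 520 and 885 CPM in late neuronal nuclei. Both genes were ordered alike: early mesoderm below all other libraries, early neuronal nuclei above them, and the late groups between and overlapping. serp was lower in early mesoderm by 10.3-fold (log2 -3.37 ± 0.28 SE, adjusted p = 0.000196) and verm by 8.27-fold (log2 -3.05 ± 0.30, adjusted p = 0.000318). In mesoderm serp rose by 2.11 ± 0.27 (adjusted p = 0.000948) and verm by 2.0 ± 0.29 (adjusted p = 0.00151). In neuronal nuclei serp fell by 1.28 ± 0.26 on the log2 scale (adjusted p = 0.0175) and verm fell by 1.39 ± 0.28 (adjusted p = 0.0173). Without replicate 1 of early neuronal nuclei these falls had adjusted p-values of 0.112 for serp and 0.115 for verm. The late tissue differences were 0.02 ± 0.26 for serp (adjusted p = 0.948) and 0.35 ± 0.28 for verm (adjusted p = 0.341). The one for verm became 0.75 with an adjusted p of 0.0217 without replicate 2 of late neuronal nuclei.

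obst-A, obst-B and Gasp belong to the Obstructor family, secreted proteins with chitin-binding domains. Obst-A is known as a matrix scaffold that holds deacetylases and Knk in the forming cuticle, and Gasp is an abundant protein of the tracheal lumen. obst-A (FBgn0031097, chromosome X, 20239855 to 20243209, plus strand) stood at 46.1 and 18.4 CPM in early mesoderm, 401 and 264 CPM in late mesoderm, 1026 and 935 CPM in early neuronal nuclei and 258 and 489 CPM in late neuronal nuclei. Its early mesoderm replicates differed from each other more than those of kkv or mmy, yet both lay far below every other library. obst-A had the most negative early tissue difference of the 9 genes, -4.93 ± 0.55 (adjusted p = 0.000442), and it rose in mesoderm by 3.37 ± 0.51 (adjusted p = 0.00183). Without replicate 1 of early mesoderm these became -5.74 and 4.18, with adjusted p-values of 0.00109 and 0.00274. Its early and late neuronal libraries did not overlap. Its neuronal change was -1.39 ± 0.47 and missed the threshold (adjusted p = 0.0757). It passed in 5 of 15 alternatives, among them 0.047 and 0.0484 without replicate 1 or 2 of early mesoderm and 0.023 without replicate 2 of late neuronal nuclei. Its late tissue difference was -0.17 ± 0.46 (adjusted p = 0.789), with overlapping libraries.

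obst-B (FBgn0027600, chromosome 2L, 10032690 to 10038954, plus strand) stood at 9.85 and 18.0 CPM in early mesoderm, 91.3 and 79.5 CPM in late mesoderm, 122 and 182 CPM in early neuronal nuclei and 128 and 132 CPM in late neuronal nuclei. The early mesoderm libraries were again the low ones, and both neuronal groups overlapped. The early tissue difference of obst-B was -3.44 ± 0.34 (adjusted p = 0.000318), its mesodermal rise 2.61 ± 0.33 (adjusted p = 0.000906) and its neuronal change -0.22 ± 0.31 (adjusted p = 0.631). At the late stages it was at 85.4 ± 8.36 CPM (SD, n = 2) in mesoderm and 130 ± 3.23 CPM in neuronal nuclei, and these libraries did not overlap. That difference was -0.61 ± 0.31 on the log2 scale and missed the threshold (adjusted p = 0.147). It passed with library totals (-0.91, adjusted p = 0.0465).

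Gasp (FBgn0026077, chromosome 3R, 6088799 to 6100887, minus strand) stood at 71.0 and 36.5 CPM in early mesoderm, 735 and 426 CPM in late mesoderm, 519 and 591 CPM in early neuronal nuclei and 460 and 1053 CPM in late neuronal nuclei. Early mesoderm was low and the other 3 groups overlapped. The late neuronal replicates stood further apart than for any other member, and replicate 2 was the higher library for 8 of the 9 members in that group, all but kkv. Gasp was lower in early mesoderm by 10.3-fold (log2 -3.37 ± 0.52 SE, adjusted p = 0.00151) and rose in mesoderm by 3.43 ± 0.52 (adjusted p = 0.00178). Its neuronal change was 0.45 ± 0.47 (adjusted p = 0.524) and its late tissue difference -0.38 ± 0.47 (adjusted p = 0.534), and both changed sign without replicate 2 of late neuronal nuclei, to -0.21 and 0.30.

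**Figure D2:**
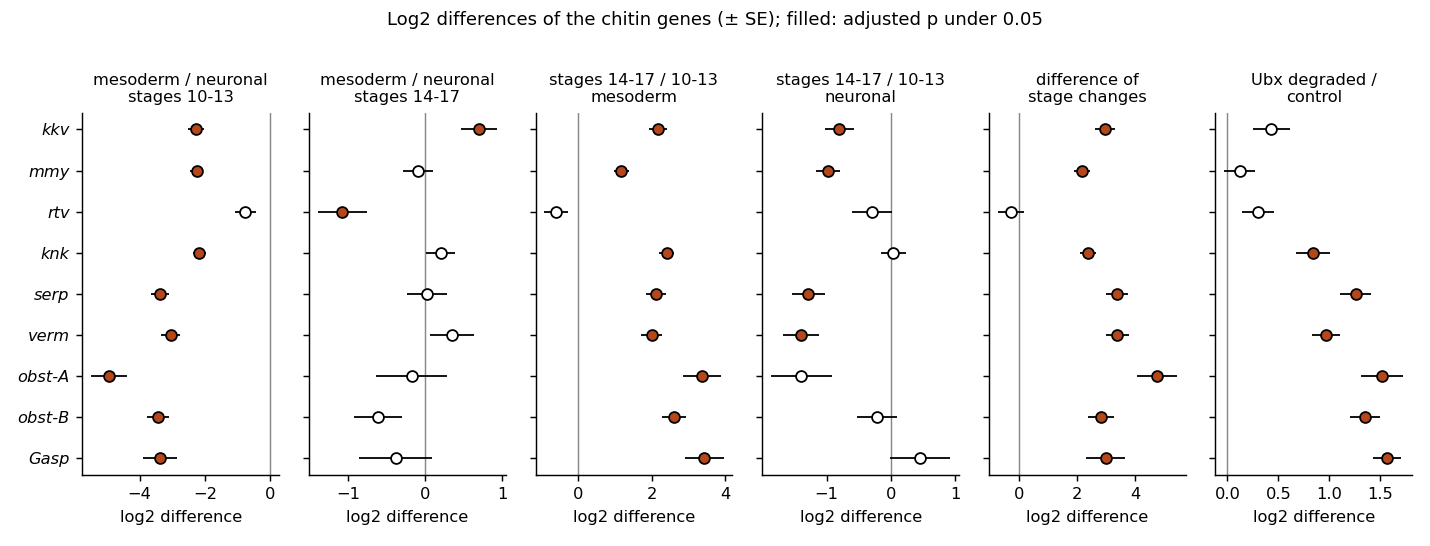
Log2 differences of the 9 chitin genes (points) with standard errors (bars) in 6 comparisons, each with its own horizontal scale, filled where the adjusted p was under 0.05. The first panel lies left of 0 for all 9 genes, from -4.93 to -0.77, the mesodermal stage change lies right of 0 for 8 genes, and the degradation panel runs from 0.12 to 1.57.

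The difference between the stage changes was tested directly for each member. It was largest for obst-A at 4.76 ± 0.69 (log2, SE, adjusted p = 0.00236), then 3.39 ± 0.38 for serp (adjusted p = 0.00102) and 3.39 ± 0.40 for verm (adjusted p = 0.00125). kkv had 2.97 ± 0.34 (adjusted p = 0.00107) and Gasp 2.99 ± 0.68 (adjusted p = 0.0134). The Gasp call was lost without replicate 1 of late mesoderm, where the difference was 2.50 (adjusted p = 0.056). It became 3.60 (adjusted p = 0.00109) without replicate 2 of late neuronal nuclei, and obst-A became 5.57 (adjusted p = 0.00193) without replicate 1 of early mesoderm. obst-B, knk and mmy had 2.84 ± 0.45, 2.37 ± 0.27 and 2.16 ± 0.28, with adjusted p-values of 0.00316, 0.00115 and 0.00149. For knk, obst-A, obst-B and Gasp the neuronal change itself was not called, whereas for kkv, mmy, serp and verm it joined a rise in mesoderm to a fall in neuronal nuclei.

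Levels were compared between genes as CPM per kb of merged exons. By the group mean verm was the highest member in 5 of the 6 groups, at 94.0 ± 6.02 (SD, n = 2) in early mesoderm and 777 ± 133 in early neuronal nuclei. In late neuronal nuclei Gasp came first at 321 ± 178 CPM per kb, followed by verm at 296 ± 109, obst-A at 196 ± 85.7 and serp at 180 ± 50.3, and these neighbours did not differ beyond their spread. In late mesoderm the order was verm at 377 ± 13.9, Gasp at 247 ± 92.8, serp at 183 ± 17.6 and obst-A at 175 ± 51.1, of which the last 3 did not differ beyond their spread. obst-B, kkv, mmy and knk followed in late mesoderm between 74.3 ± 7.27 and 44.4 ± 3.17 CPM per kb, and rtv was last at 6.16 ± 0.776. rtv was the lowest member per length in every group except early mesoderm, where knk was lowest at 8.32 ± 1.16 and rtv stood at 9.28 ± 0.522. The synthase kkv thus took rank 6 of 9 per length in wild-type late mesoderm, below both deacetylases. In the degradation set, also mesoderm of stages 14-17, it took rank 4 in the controls at 46.6 ± 9.61 CPM per kb (SD, n = 3). In the degraded libraries it took rank 7 at 62.6 ± 9.8. These ranks were taken within each group and rest on small distances. Gasp at 38.4 ± 3.5 in the controls lay within the spread of kkv. So did obst-B at 65.2 ± 8.61 and mmy at 71.8 ± 7.2 in the degraded libraries. Gasp and obst-B have spans 5.13 and 5.45 times their exon length, and the sources used here do not say whether intron reads were counted. Per kb of span Gasp took rank 4 in both late groups.

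**Figure D3:**
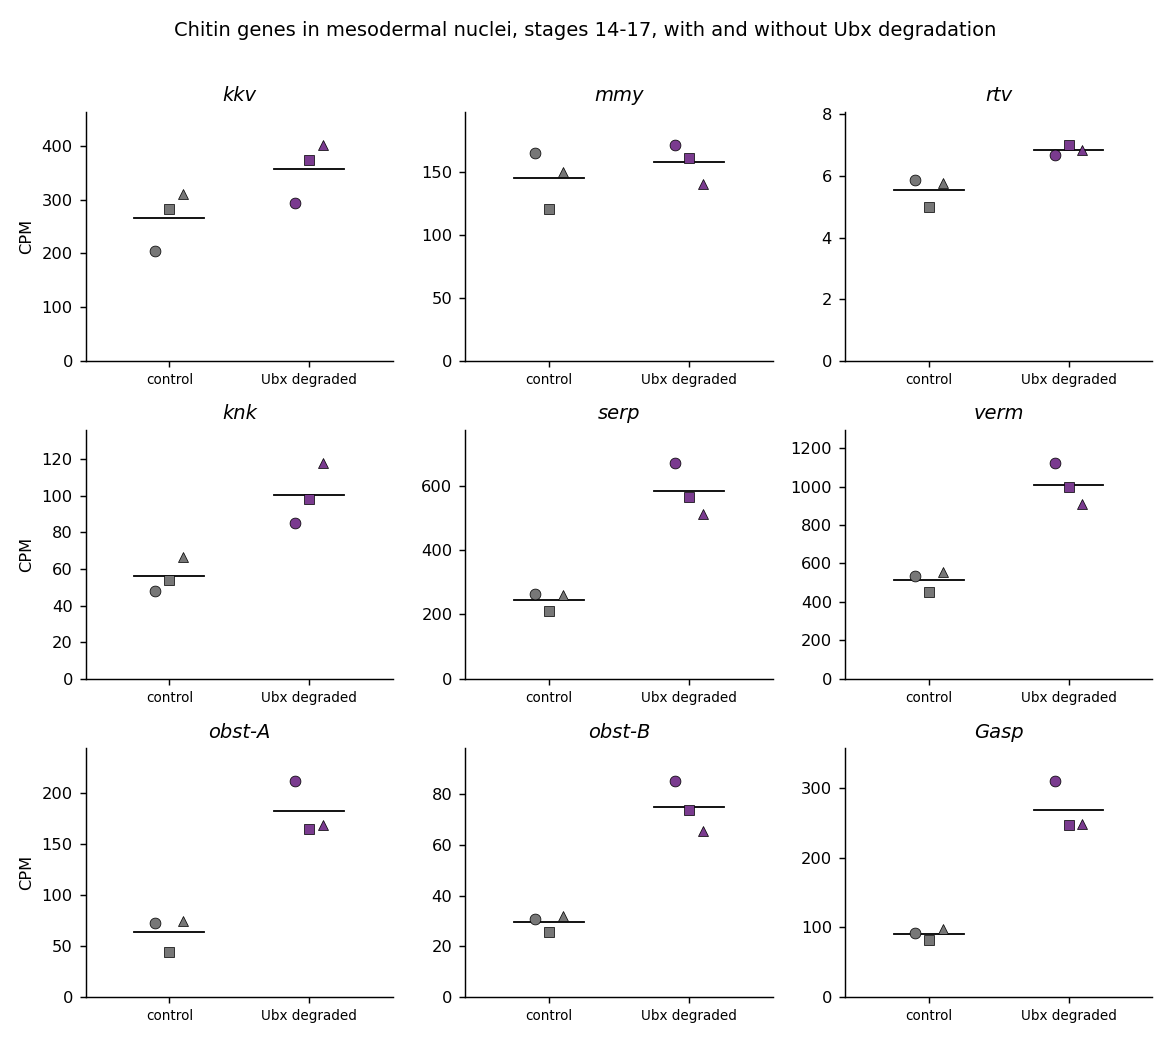
CPM (linear scale from 0) of each chitin gene in the 3 control and 3 degraded mesoderm libraries of stages 14-17, with circles, squares and triangles for replicates 1, 2 and 3 and a line at the group mean. The groups do not overlap for rtv, knk, serp, verm, obst-A, obst-B and Gasp, and they overlap for kkv and mmy. The share of all genes whose groups do not overlap was not counted.

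In mesodermal nuclei of stages 14-17, 6 of the 9 chitin genes were higher after Ubx degradation than in the controls: Gasp, obst-A, obst-B, serp, verm and knk, by 1.79-fold (knk) to 2.97-fold (Gasp). Of 11641 genes tested, 3.57% were called higher and 1.21% lower. The median log2 difference was 0.97 over the members and -0.01 over all genes tested. The 2 deacetylases, the 3 Obstructor members and knk were called, and the precursor enzyme mmy, the synthase kkv and rtv were not. With replicate number as a block kkv was called too (adjusted p = 0.0326), and calls over all genes went from 557 to 1238. In bulk nuclei such as these, more nuclei of a cell type and more RNA per nucleus cannot be told apart. Some markers of epidermis and trachea moved with the members: of 16 in the list, 6 were called higher (vvl, trh, shg, ovo, uif and peb) and 0 lower. The other 10 were not called. Log2 differences were above 0 for 14 of the 16, and below 0 for rib (-0.03) and pnt (-0.31). The summed level of the 16 was 2200 to 2619 CPM in the controls and 3031 to 3167 CPM in the degraded libraries. All 16 were detected, and their part in the result was not tested.

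Gasp stood at 91.7, 81.7 and 98.1 CPM in the controls and at 311, 247 and 249 CPM in the degraded libraries. obst-A stood at 72.3, 44.3 and 74.3 CPM in the controls and at 212, 165 and 169 CPM in the degraded libraries. obst-B stood at 30.6, 25.8 and 32.0 CPM in the controls and at 85.4, 73.7 and 65.7 CPM in the degraded libraries. For these 3 chitin-binding proteins the lowest degraded library exceeded the highest control library. The log2 differences were 1.57 ± 0.14 for Gasp (SE, adjusted p = 0.00173), 1.52 ± 0.21 for obst-A (adjusted p = 0.0107) and 1.35 ± 0.15 for obst-B (adjusted p = 0.00516). Gasp and obst-B kept their calls in all 12 alternatives. obst-A lost its call in 1, a fit of all 14 libraries together (adjusted p = 0.0535).

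serp stood at 263, 210 and 259 CPM in the controls and at 671, 566 and 511 CPM in the degraded libraries. verm stood at 536, 452 and 557 CPM in the controls and at 1124, 999 and 908 CPM in the degraded libraries. In both deacetylases every degraded library was above every control library. serp was higher by 2.39-fold (log2 1.26 ± 0.15 SE, adjusted p = 0.00794) and verm by 1.96-fold (log2 0.97 ± 0.14, adjusted p = 0.0146). Without replicate 2 of the controls the adjusted p was 0.0504 for serp and 0.0808 for verm, and without replicate 2 of the degraded libraries it was 0.0737 for verm.

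knk stood at 47.8, 54.0 and 66.3 CPM in the controls and at 85.0, 98.0 and 118 CPM in the degraded libraries. Its groups did not overlap, and the difference of 0.84 ± 0.17 (adjusted p = 0.0342) was the smallest of those called. The call was lost without control replicate 1 or 2 (adjusted p = 0.0888 and 0.152) and without degraded replicate 2 or 3 (adjusted p = 0.113 and 0.0903). Without control replicate 2, 3 members were called in all, namely Gasp, obst-A and obst-B.

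kkv stood at 204, 283 and 310 CPM in the controls and at 295, 374 and 403 CPM in the degraded libraries. The groups overlapped, since the lowest degraded library lay below the highest control library, while each degraded library exceeded the control of the same replicate number. The difference was 0.43 ± 0.18 (log2, SE, adjusted p = 0.196). With the block the difference was 0.44 ± 0.09, and 7 of 9 members were called. mmy stood at 165, 121 and 150 CPM in the controls and at 172, 161 and 141 CPM in the degraded libraries, groups that overlapped (log2 0.12 ± 0.15, adjusted p = 0.679). rtv stood at 5.86, 4.99 and 5.78 CPM in the controls and at 6.67, 7.02 and 6.83 CPM in the degraded libraries. Its groups did not overlap, and the difference of 0.30 ± 0.16 missed the threshold (adjusted p = 0.276).

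The other genes of the chitin pathway were read from 5 lists of 35 genes, of which 30 passed the filter in the wild-type tables and 34 in those of the degradation experiment. Of the 5 not tested in the wild-type set, Idgf1, Idgf6 and obst-J were listed at 0 in all 8 wild-type libraries but at means of 87.7, 324 and 22.3 CPM in the late mesoderm controls. The sets were tabulated separately, so these zeros are not read as absence of expression. In early nuclei 21 of 30 were lower in mesoderm and 1 was higher, with a median of -1.85, where 29.5% of all genes were called lower and 23.2% higher. Beside kkv and knk, exp and reb, which are required together with the synthase for chitin deposition, were lower, at -3.27 ± 0.27 and -2.54 ± 0.30 on the log2 scale. Chs2, the second chitin synthase of the fly, known from the gut, was higher in early mesoderm by 2.44 ± 0.43 (adjusted p = 0.00286), in the direction opposite to kkv. It stood at 55.2 and 64.4 CPM there, against 10.7 and 11.3 CPM in early neuronal nuclei. Beside serp and verm, the deacetylase genes Cda4 and Cda5 were lower in early mesoderm, at -2.87 ± 0.27 and -1.74 ± 0.30, and all 4 other deacetylase genes tested were lower. In the Obstructor list obst-E (log2 -5.84 ± 0.79) and Peritrophin-A (log2 -4.30 ± 0.42) were lower and 3 of 5 were called. The early mesoderm libraries of obst-E stood apart, at 25.2 and 3.96 CPM, and its difference became -7.72 without replicate 1 and -5.02 without replicate 2 of that group (adjusted p = 0.000351 and 0.000862). That of Peritrophin-A became -5.03 without replicate 1 (adjusted p = 0.000519). Of the chitinase and Idgf list 10 of 13 were lower, and those of smallest adjusted p were Cht2 (-2.41 ± 0.20) and Cht7 (-3.06 ± 0.32). The precursor list had 2 of 5 lower, Pgi at -1.83 ± 0.25 and Gnpnat at -0.85 ± 0.28. The Gnpnat call was lost without either library of early mesoderm (adjusted p = 0.162 and 0.0962), late mesoderm (0.0685 and 0.0686) or early neuronal nuclei (0.0905 and 0.127).

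At stages 14-17, 6 of 30 other pathway genes were higher in mesoderm and 5 lower, with a median of 0.08. Beside the 19.0% of all genes called higher and 22.1% called lower, these counts are near the background. Higher were Cht6 (3.49 ± 0.38), Cda5 (2.19 ± 0.30), exp (1.2 ± 0.25), Cda4 (1.10 ± 0.25), Idgf2 (0.50 ± 0.17) and Cht7 (0.86 ± 0.29, adjusted p = 0.0494), the last named after its value was seen and not run under the alternatives in this comparison. Lower were Cht5 (-1.57 ± 0.37), Gfat2 (-0.92 ± 0.20) and Cht2 (-0.79 ± 0.19), as well as Cda9 and obst-F. The last 2 rested on a single library. obst-F was at 0.403 and 31.6 CPM and Cda9 at 1.34 and 36.7 CPM in replicates 1 and 2 of late neuronal nuclei. Without replicate 2 the obst-F difference turned from -5.23 ± 1.76 to 0.03 (adjusted p = 0.98), and that of Cda9 from -4.22 ± 1.37 to -0.44 (adjusted p = 0.539). obst-F was also lost without any 1 of the 6 libraries of the other groups (adjusted p from 0.0557 to 0.191), and Cda9 without either library of late mesoderm (0.189 and 0.16) or early neuronal nuclei (0.0781 and 0.0783). Without replicate 1 of late neuronal nuclei both kept their calls, at -6.21 for obst-F and -5.17 for Cda9 (adjusted p = 2.89e-05 and 5.15e-05). Idgf2 kept its call in 3 of 15 alternatives and lost it without any library but replicate 2 of late neuronal nuclei (adjusted p from 0.0586 to 0.16). Without replicate 1 of late mesoderm the adjusted p was 0.0563 for exp, 0.0891 for Cda4, 0.0865 for Cht5, 0.078 for Gfat2 and 0.0786 for Cht2. Without replicate 2 it was 0.0826 for Cht5, 0.058 for Gfat2 and 0.0683 for Cht2.

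From the early to the late stages 18 of 30 other pathway genes rose in mesoderm and 1, Chs2, fell by 1.66 ± 0.42 on the log2 scale, where 24.9% of all genes were called higher and 22.7% lower. The rises included exp (2.86 ± 0.27), Cda4 (2.84 ± 0.27), Peritrophin-A (2.71 ± 0.39), Cht7 (3.29 ± 0.32) and Idgf2 (2.12 ± 0.18). The rise of Peritrophin-A became 3.45 without replicate 1 of early mesoderm (adjusted p = 0.00161). In neuronal nuclei 7 fell, among them reb (-3.15 ± 0.31), obst-E (-4.42 ± 0.73) and Cht6 (-3.15 ± 0.38), and 2 rose, the precursor enzyme genes Gfat2 (1.06 ± 0.20) and nst (0.68 ± 0.18). Over all genes 12.0% were called lower and 8.47% higher, so the 2 rises are near the background. Without replicate 1 of early neuronal nuclei the adjusted p was 0.0615 for obst-E and 0.108 for Gfat2, and without replicate 2 it was 0.0538 for Gfat2. nst kept its call in 5 of 15 alternatives and, of single libraries, only without replicate 1 of late neuronal nuclei (otherwise adjusted p from 0.0542 to 0.162). The difference between the stage changes was higher for 15 and lower for 1, again Chs2 (-2.34 ± 0.59), where 20.6% of all genes were called higher and 14.7% lower. Chs2's fall in mesoderm was lost without replicate 2 of early mesoderm (adjusted p = 0.0605) or either library of late mesoderm (0.0844 and 0.0614). Its difference was lost without these (0.0539, 0.0716 and 0.0541) and without either library of early neuronal nuclei (0.0761 and 0.0669), and it became -1.53 without replicate 2 of late neuronal nuclei (adjusted p = 0.00292). Its highest values were 7.03 ± 1.0 for obst-E, 5.84 ± 0.53 for Cht6 and 5.11 ± 0.55 for Peritrophin-A, and its median over the 30 was 1.53. Without replicate 1 of early mesoderm obst-E became 8.91 and Peritrophin-A 5.85 (adjusted p = 0.000327 and 0.000493), and without replicate 2 obst-E became 6.19 (adjusted p = 0.00139).

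After Ubx degradation 6 of 34 other pathway genes were higher and 0 lower, with a median of 0.36. Over all genes 3.57% were called higher and 1.21% lower, so the 0 lower is near the background. Of 4 deacetylase genes beside serp and verm, 3 were higher: Cda4 by 1.55 ± 0.16 (adjusted p = 0.00469), ChLD3 by 1.48 ± 0.24 (adjusted p = 0.0186), and Cda5, named after its value was seen and not run under the alternatives, by 0.86 ± 0.17 (adjusted p = 0.0332). Cda4 stood at 56.3, 49.9 and 61.3 CPM in the controls and at 201, 145 and 144 CPM in the degraded libraries, with no overlap. Also higher were Cht7 (0.97 ± 0.13, adjusted p = 0.0104), Peritrophin-A (0.66 ± 0.14, adjusted p = 0.0345) and exp (0.70 ± 0.16, adjusted p = 0.0488). The precursor list had 0 of 5 called, a count near the background for a list of this size. Its gene of highest level, Hex-A, differed by -0.20 ± 0.13 (adjusted p = 0.373). The Cht7 and ChLD3 calls were each lost without control replicate 2 (adjusted p = 0.059 and 0.0587) or degraded replicate 2 (0.0696 and 0.0737). exp kept its call in 5 of 12 alternatives and Peritrophin-A in 6 of 12. Without control replicate 1 or 2 the adjusted p was 0.107 and 0.174 for exp and 0.0594 and 0.16 for Peritrophin-A. Without degraded replicate 1, 2 or 3 it was 0.0671, 0.154 and 0.129 for exp and 0.0704, 0.121 and 0.0617 for Peritrophin-A.

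**Figure D4:**
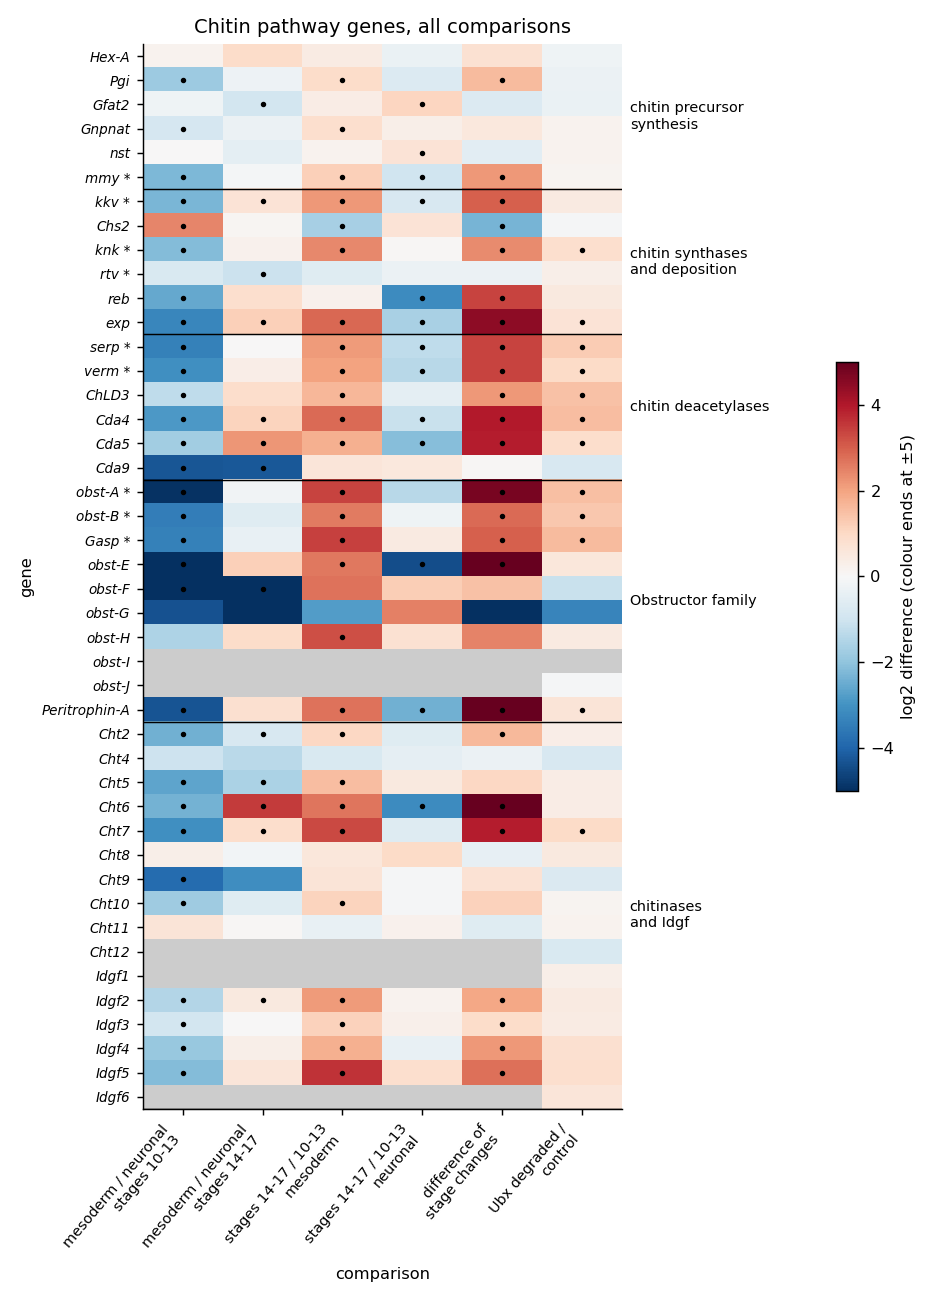
Log2 differences (colour, ending at -5 and 5) of the genes of the 5 chitin pathway lists, members marked with an asterisk, in 6 comparisons, with dots where the adjusted p was under 0.05 and grey where a gene was not tested. The first column is mostly blue (8 members and 21 other genes called lower, Chs2 called higher), and the mesodermal stage change is mostly red. The precursor genes (mmy included) show 0 dots in the degradation column, a count near the background for a list of this size.

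The 9 members did not share a single pattern over the wild-type libraries. Correlated with kkv across 8 libraries on log2(CPM + 0.5), knk (r = 0.938), verm (r = 0.931) and serp (r = 0.929) were closest, then obst-A (r = 0.891), obst-B (r = 0.886), mmy (r = 0.876) and Gasp (r = 0.847), and rtv stood apart (r = 0.058). These correlations describe 4 groups of 2 libraries and share depth and tissue. The 5 genes outside the list most like kkv among 8258 ranked were Gycbeta100B (r = 0.988), CG14253 (r = 0.987), pwn (r = 0.985), CG12814 (r = 0.984) and Exn (r = 0.983). All 5 were lower in early mesoderm than in the other groups, as for pwn at 33.3 CPM against 159 in late mesoderm, 197 in early neuronal and 107 in late neuronal nuclei. In that ranking knk stood at place 134, the next 6 members between places 173 (verm) and 670 (Gasp), and rtv at place 3771.

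In the wild-type set the markers of epidermis and trachea ran against the members between tissues at the early stages. At stages 10-13 the summed level of the 16 markers was 6205 to 6723 CPM in mesoderm and 2381 to 2925 CPM in neuronal nuclei, with 9 called higher in mesoderm and 2 lower (Ddc and ple), while the summed level of the 9 members was 577 and 600 CPM in mesoderm and 5720 and 4989 CPM in neuronal nuclei. At stages 14-17 the markers summed to 4362 to 4843 CPM in mesoderm and 2059 to 3177 CPM in neuronal nuclei, and the members to 3261 and 2612 CPM against 2163 and 3570 CPM. Ddc and ple are enzymes of catecholamine synthesis and of cuticle tanning. Both were lower in early mesoderm, at -4.88 ± 0.52 and -4.42 ± 0.53 on the log2 scale, in the direction of the members. In the degradation set Ddc and ple differed by 0.07 ± 0.15 and 0.16 ± 0.25 and were not called (adjusted p = 0.838 and 0.741). After degradation 0 of 12 muscle, 0 of 12 neuronal and 0 of 7 glial markers were called by that test, and of 8 hemocyte markers 1 was lower, Hml. With 3.57% of all genes called higher and 1.21% lower, counts of 0 in lists of this size are near the background. The summed neuronal level was 1262 to 1344 CPM in the controls and 1488 to 1648 CPM in the degraded libraries, which did not overlap and lay in the direction of the members. Its part in the result was not tested.

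**Figure D5:**
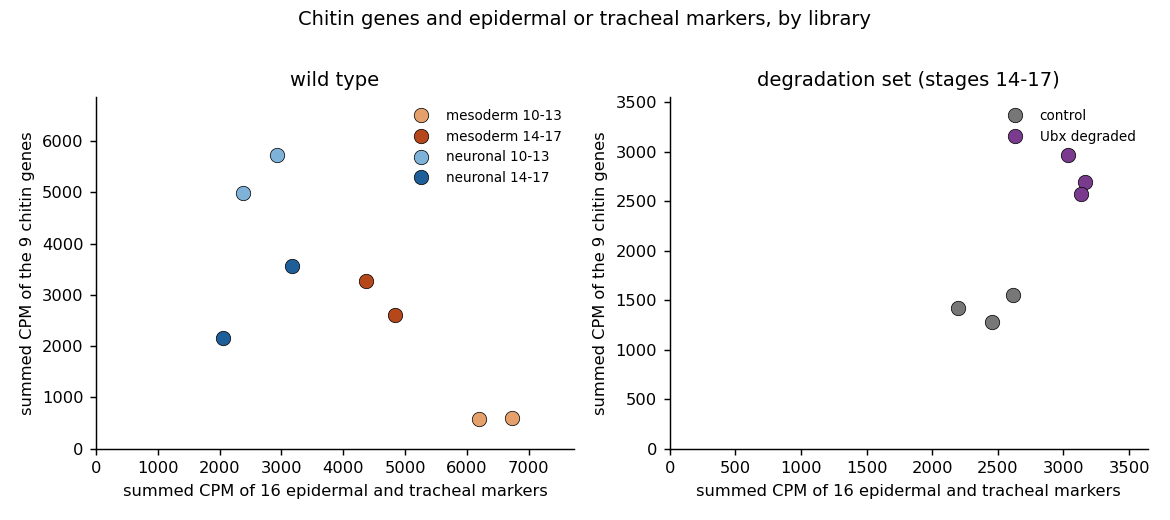
Summed CPM of the 9 chitin genes (vertical axis) against that of 16 epidermal and tracheal markers (horizontal axis), with a point for each library, in the wild-type set (left) and the degradation set (right). In the wild-type set early mesoderm combines the highest marker sums with the lowest chitin sums (577 and 600 CPM), and in the degradation set the 3 degraded libraries lie above and to the right of the 3 controls.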

How the data were processed

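RNA from INTACT-isolated embryonic nuclei was measured in 14 libraries. The deposited files are whole-number counts for each FlyBase gene. Per the submitters' processing notes, HTSeq and FastQC were used, with BDGP6 and dm6 named as builds. The aligner, tool versions, annotation, strand setting and handling of intron reads were not given in the sources used here. Genes whose span exceeds their exons over 10 times were higher in wild-type late mesoderm than in the controls. The median log2 ratio was 1.46 over 97 such genes with high counts in the controls. The wild-type and degradation tables list different genes (13765 shared), so each set was fitted apart. Beyond that check, levels were not compared across sets. Lines for unassigned reads, present in the degradation files only (42.8 to 48.6% of reads not unique, 7.4 to 8.9% in no gene, 0.8% ambiguous), stayed out.

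Counts were filtered with filterByExpr (minimum count 10, minimum total 15) and tested with edgeR 4.0.16 (R 4.3.3) after TMM scaling, by the quasi-likelihood test with group as the only term and 4 residual degrees of freedom per set. P-values were Benjamini-Hochberg adjusted over 10549 or 11641 genes, with a threshold of 0.05. Standard errors of the edgeR log2 differences were derived from the quasi-likelihood test, as the absolute difference over the square root of its F statistic. CPM, computed here from the deposited counts, uses TMM-scaled library sizes. Ensembl release 115 (BDGP6) gave coordinates and symbols, for 98.4% of wild-type and 95.7% of degradation genes. The fits were tested on simulated data. Most changes of the smaller simulated fold were not called in the wild-type set, and some of the larger fold were missed there too. In the degradation set some changes of the smaller fold were not called. An uncalled gene in either set is thus not shown to be equal. Counts of every pair of libraries within a set differed beyond sampling noise. Overlap of groups was read for named genes and lists only, as a description, and its share over all genes was not counted. Same-numbered libraries deviated together in the degradation set (correlations 0.14 to 0.32 over 3 pairs). The labels state no pairing, so the reported test has no replicate block, and the block was run as an alternative. Alternatives were library totals, no filter, a replicate block, DESeq2 1.42.0, limma-voom 3.58.1, other sample sets and leaving out each library.

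The members and lists were chosen with earlier results of these data known. Other pathway genes are named, per comparison and list, as the 2 higher and 2 lower called genes of smallest adjusted p, or the one of highest level where none passed. Of the list symbols Gfat1, Knkl, Cda3, btl and tyn are not analysed here. obst-I and Cht12 were below the filter in the wild-type set, and obst-I in the degradation set. obst-J, Idgf1 and Idgf6, listed at 0 in every wild-type library, were not tested there.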

Additional observations from a re-analysis of the deposited data

Results flagged for a closer look

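For 8 of the 9 members the change from stages 10-13 to 14-17 differed between mesoderm and neuronal nuclei by a direct test of the difference (mesoderm minus neuronal, log2), where 20.6% of all genes were called higher and 14.7% lower. The values were 4.76 for obst-A, 3.39 for serp, 3.39 for verm, 2.99 for Gasp, 2.97 for kkv, 2.84 for obst-B, 2.37 for knk and 2.16 for mmy. They are the differences described above, and no member besides rtv failed this test.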

How the results depend on the processing

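Among the 54 member results (9 genes in 6 comparisons) 36 were called, 25 of these kept direction and call under every alternative run and 0 changed direction; of the 18 uncalled results 6 passed the threshold under some alternative. The number of members called was within 1.5 times the reported count for mesoderm against neuronal at stages 10-13 and for both the mesodermal stage change and the difference of stage changes. At stages 14-17 it was 2, falling to 1 without the filter or with a replicate block and to 0 with limma-voom or with only the groups compared. In neuronal nuclei it was 4, falling to 0 with only the groups compared. Leaving out single libraries gave 0 to 2 members at stages 14-17, 0 to 4 in the neuronal stage change and 3 to 6 after degradation. The cause of these changes was not tested. Fewer libraries also give fewer degrees of freedom, and the part of this was not tested either.

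Calls over all genes were 2739 at stages 14-17 and 766 in the neuronal stage change with only the groups compared, and 3274 in the latter with all 14 libraries in 1 fit. After degradation they were 557 as reported, 1238 with a replicate block, 1204 with DESeq2 and 180 with all 14 libraries in 1 fit. Without single libraries they ran from 3798 to 6843 at stages 10-13, 1353 to 5592 at stages 14-17, 2905 to 6267 in the mesodermal and 393 to 4244 in the neuronal stage change, 2029 to 5117 for the difference and 34 to 1707 after degradation. Same-numbered wild-type libraries had correlations of -0.11 to 0.29, and the labels state no pairing there either. With the replicate block 9 members were called at stages 10-13 in that set, where 8 were reported.

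Values that changed sign were uncalled ones near 0 and the obst-F call. At stages 14-17, with library totals, knk was at -0.09 and serp at -0.26, and serp was at -0.005 without the filter. Leaving out single libraries moved serp between -0.24 and 0.31, obst-A between -0.56 and 0.33, Gasp between -0.86 and 0.30 and obst-F between -6.21 and 0.03. In the neuronal stage change knk was at -0.08 with library totals. Leaving out single libraries moved rtv between -0.67 and 0.05, knk between -0.06 and 0.19, obst-B between -0.49 and 0.10 and Gasp between -0.21 and 0.92. The difference of stage changes for rtv ran from -0.64 to 0.05. Across all genes, the higher share of calls was 74.7% after degradation, 60.0% with the replicate block and 59.1% with DESeq2. It turned to 44.7% without control replicate 3 (763 higher, 944 lower) and was 95.3% without degraded replicate 2, so the balance of the background after degradation depends on single libraries. Over single libraries left out, it ran from 46.0% to 72.5% for the late tissue difference (46.2% reported) and from 13.2% to 46.6% for the neuronal stage change (41.5%).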
